A study of Caenorhabditis elegans with 6 samples.

Results

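The 8 genes described here belong to the hypoxia and hydrogen sulfide pathway of Caenorhabditis elegans, a free-living nematode. They were chosen by name, with earlier results of these data known: hif-1, egl-9, rhy-1, cysl-1, cysl-2, sqrd-1, nhr-57 and phy-2. All 8 were found among the 46589 gene identifiers of the expression tables, and all 8 were among the 13511 genes abundant enough to test. Levels were measured by RNA sequencing of whole animals, in 3 tryptophan libraries and 3 control libraries. The tryptophan animals were wild-type (WT) hermaphrodites given 5 mM tryptophan, an essential amino acid, for 36 h from the last larval stage (L4) to young adulthood. The control animals were wild-type hermaphrodites of the same age, 36 h past L4, without added tryptophan, and both groups were kept at 20 °C. The labels give neither the number of animals in a library nor whether replicates were grown apart, and the p-values therefore reflect no more than how these libraries vary, which may be technical.

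HIF-1 is the transcription factor that animals use to respond to low oxygen. In normal oxygen the prolyl hydroxylase EGL-9 marks HIF-1, and a ubiquitin ligase containing VHL-1 then has it destroyed. Hydrogen sulfide acts on the same switch in this nematode: the cysteine synthase-like protein CYSL-1 binds EGL-9 and blocks it, and the membrane protein RHY-1 holds CYSL-1 in check. Active HIF-1 raises transcription of cysl-2, sqrd-1, nhr-57 and phy-2, and also of egl-9 and rhy-1, which closes a negative feedback loop. HIF-1 itself is controlled mainly at the level of its protein, which RNA sequencing does not measure.

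Over all 6 libraries the groups overlapped for the switch genes hif-1, egl-9, rhy-1 and cysl-1. They did not overlap for the 4 HIF-1 targets among the 8 that lie outside the feedback loop. That split was absent from libraries 2 and 3 of each group. There 7 of the 8 genes were higher without overlap, against 21.4% of all genes, and 1 was lower, against 25.0%. Of the 7, 4 were bound to keep that order, since they had it over all 6 libraries. For cysl-2, sqrd-1, nhr-57 and phy-2, each of the 3 tryptophan libraries lay above each of the 3 control libraries, with group means 1.44 to 1.99 times as high. This did not extend to the 10 other tested genes reported to respond to HIF-1 or EGL-9. Of those 10, 0 were higher without overlap and 1 was lower, against 3.98% and 4.32% of all genes. No gene passed the test across all genes: 0 of 8 pathway genes and 0 of 13511 genes tested (0.0%) had a limma adjusted p under 0.05, and 158 of all genes (1.17%) but 0 of the 8 had an unadjusted p under 0.05. Tryptophan libraries above every control library were found for 4 of the 8 genes, against 3.98% of all genes tested, and the reverse order for 0 of the 8, against 4.32%. The log2 fold change was above 0 for 5 of 8 genes, against 47.7% of all genes, with a median of 0.25 over the 8 and -0.03 over all genes tested. Because the 8 genes were chosen with earlier results of these data known, these shares describe them and are not an independent test. Every fold change below is a difference of log2(FPKM + 1), tryptophan minus control, where FPKM is fragments per kilobase of transcript and scaled to library size. On this scale a low gene's change comes out too small.

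Before the single genes, 1 library of each group has to be set apart. Tryptophan library 1 and control library 1 correlated at 0.578 across genes, against 0.960 to 0.980 among the other 4 libraries. The libraries held an estimated 14.9 to 25.1 M (mega) counted units. Markers of adult hermaphrodites were detected in every group: all 6 yolk genes, all 10 oocyte genes and 30 of 31 major sperm protein genes. The last sperm gene was listed at 0 in all 3 control libraries, and the highest of 7 male genes reached 1.65 FPKM. Detection alone does not show that all libraries were of the same stage, which was not tested. Summed yolk genes ranged over 406.1 to 3951 FPKM in tryptophan libraries and 945.7 to 19564 FPKM in control libraries, with the control maximum in library 1 and the tryptophan minimum in library 1. Summed major sperm protein genes ranged over 5600 to 22030 FPKM in tryptophan libraries and 508.0 to 8584 FPKM in control libraries, with the extremes again in library 1 of each group. Results are therefore also given for libraries 2 and 3 of each group. In whole animals, fewer cells of a type and less RNA per cell cannot be told apart.

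**Figure D1:**
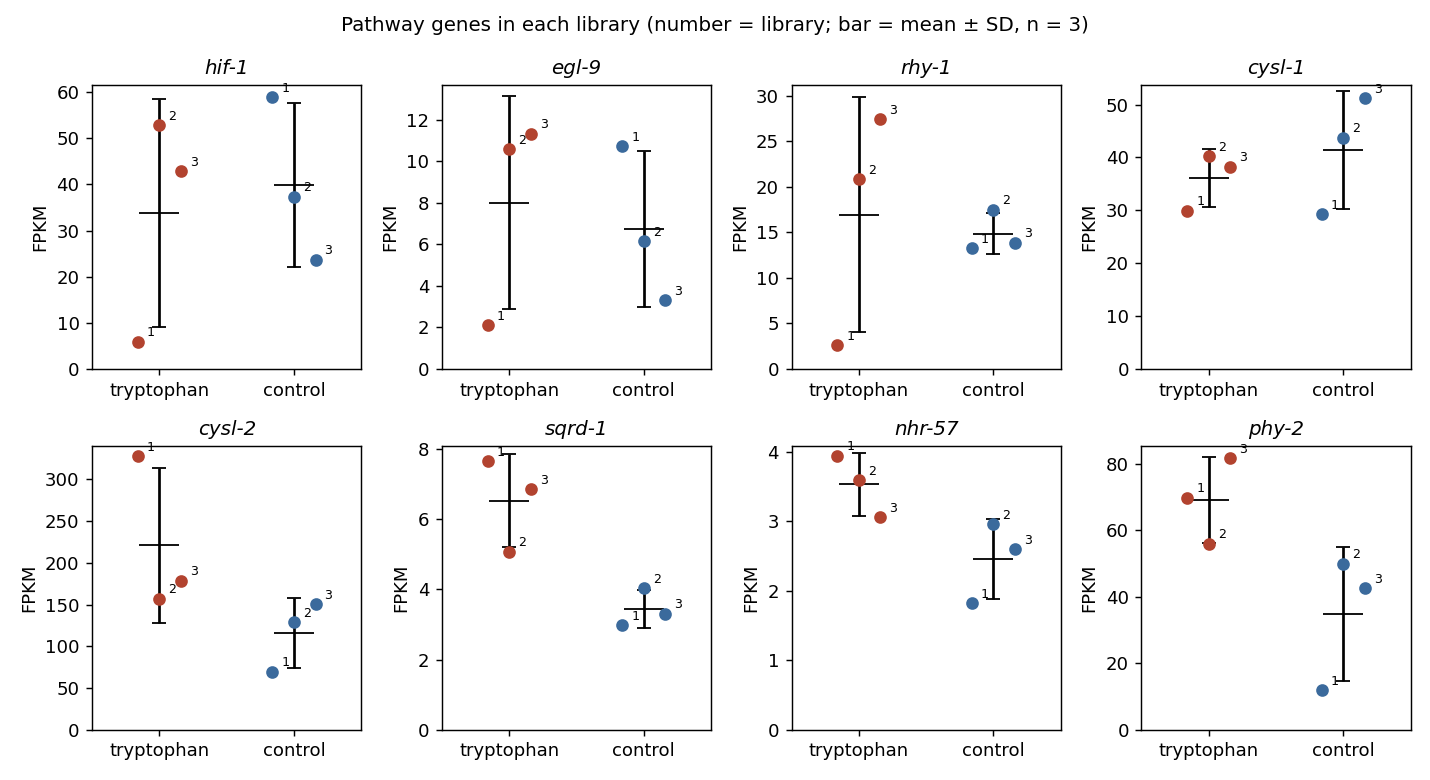
FPKM of the 8 pathway genes in each library, tryptophan left and control right in each panel; points carry the library number and bars show mean ± SD (n = 3 each). The groups do not overlap for cysl-2, sqrd-1, nhr-57 and phy-2, while tryptophan library 1 is the lowest of all for hif-1, egl-9 and rhy-1.

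The targets that handle sulfide and cyanide came first. cysl-2 (K10H10.2, WBcel235 chromosome II, 14492874 to 14494451, minus strand, 1 annotated transcript) encodes an enzyme that detoxifies cyanide, using cysteine and releasing hydrogen sulfide. Its 3′ end overlaps vnut-1 on the other strand, a gene that reached 43.7 FPKM. cysl-2 stood at 327.6, 157.2 and 178.6 FPKM in tryptophan libraries 1 to 3, against 69.6, 128.9 and 150.6 FPKM in control libraries 1 to 3. The groups were thus separate, but tryptophan library 2 lay close above control library 3, and the widest gap was between the libraries numbered 1. Its log2 fold change was 0.92 (SE 0.46, 95% interval -0.17 to 2.0, limma adjusted p = 0.802), and 0.26 (SE 0.20, interval -0.20 to 0.73, limma adjusted p = 0.575) in libraries 2 and 3. cysl-2 was the most abundant of the 8 genes in both groups, with means of 221.1 ± 92.8 FPKM in tryptophan and 116.4 ± 42.0 FPKM in control animals (SD, n = 3 each).

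sqrd-1 (F02H6.5, chromosome IV, 14219871 to 14224440, plus strand, 6 transcripts) encodes the sulfide:quinone oxidoreductase of mitochondria, which takes the first step in oxidising hydrogen sulfide. It had 7.66, 5.08 and 6.85 FPKM in tryptophan libraries 1 to 3, against 2.97, 4.04 and 3.31 FPKM in control libraries 1 to 3. Its groups were separate over all 6 libraries, as for cysl-2, nhr-57 and phy-2. They were therefore bound to be separate in libraries 2 and 3 alone. The lowest tryptophan and the highest control value of sqrd-1, both in libraries numbered 2, were 1.03 FPKM apart. The log2 fold change was 0.75 (SE 0.38, 95% interval -0.15 to 1.65, limma adjusted p = 0.802) over all libraries and 0.57 (SE 0.23, interval 0.02 to 1.11, limma adjusted p = 0.341) in libraries 2 and 3.

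nhr-57 (T05B4.2, chromosome V, 4131889 to 4135102, plus strand, 1 transcript) encodes a nuclear hormone receptor whose transcript is widely used as a reporter of HIF-1 activity. It was the least abundant of the 8, at 3.95, 3.60 and 3.06 FPKM in tryptophan libraries 1 to 3, against 1.82, 2.96 and 2.60 FPKM in control libraries 1 to 3. Tryptophan library 3 exceeded control library 2 by 0.10 FPKM, so the groups barely part, and the value in control library 1 stands for about 42.2 counted units. Tryptophan minus control was 0.40 on the log2 scale (SE 0.36, 95% interval -0.43 to 1.23, limma adjusted p = 0.802), and 0.19 (SE 0.21, limma adjusted p = 0.717) in libraries 2 and 3.

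phy-2 (F35G2.4, chromosome IV, 12211097 to 12215987, minus strand, 1 transcript) encodes a catalytic subunit of the prolyl 4-hydroxylase that matures cuticle collagens, an enzyme distinct from EGL-9. It had 69.7, 55.9 and 81.5 FPKM in tryptophan libraries 1 to 3, against 11.9, 49.9 and 42.5 FPKM in control libraries 1 to 3. Control library 1 was far below the other controls, and the nearest tryptophan and control values were those of the libraries numbered 2. The log2 fold change was the largest of the 8 over all libraries, at 1.18 (SE 0.58, 95% interval -0.18 to 2.54, limma adjusted p = 0.802), and was 0.54 (SE 0.24, interval -0.01 to 1.09, limma adjusted p = 0.362) in libraries 2 and 3. The mean log2(FPKM + 1) of 5 epidermal and cuticle genes was also lowest in control library 1, at 3.99, against 6.35 to 6.53 with tryptophan and 6.78 to 6.87 in control libraries 2 and 3. All 5 of these marker genes were detected in every library, with sums of 821.4 to 1036 FPKM in tryptophan and 1334 to 2418 FPKM in control libraries. The highest sum was that of control library 1, because col-19, the most abundant of the 5, ran the other way, at 495.9 to 740.3 FPKM in tryptophan libraries and 2396, 839.6 and 888.8 FPKM in control libraries 1 to 3. The part of such tissue or stage differences in the phy-2 value was not tested.

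The separation of these 4 targets depended in part on how libraries were scaled. With rescaling to TPM, which sets every library to the same total, cysl-2 and sqrd-1 kept groups that do not overlap and nhr-57 and phy-2 did not, against 4.63% of all genes in that setting. With quantile normalization cysl-2 and phy-2 kept them and sqrd-1 and nhr-57 did not, against 3.63% of all genes. With median rescaling all 4 kept them, against 4.15% of all genes. The log2 fold change stayed above 0 for all 4 under each of these scalings.

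Over all 6 libraries, the genes of the switch itself varied more between libraries than between groups. hif-1 (F38A6.3, chromosome V, 20780407 to 20785260, plus strand, 6 transcripts) had 5.90, 52.8 and 42.8 FPKM in tryptophan libraries 1 to 3, against 58.9, 37.4 and 23.7 FPKM in control libraries 1 to 3. The lowest value was that of tryptophan library 1 and the highest that of control library 1, so the ranges of the groups overlapped widely. Its log2 fold change was -0.60 (SE 0.82, 95% interval -2.52 to 1.32, limma adjusted p = 0.831). In libraries 2 and 3 the direction was the other way, at 0.66 (SE 0.26, interval 0.06 to 1.26, unadjusted p = 0.0346 and adjusted p = 0.320, limma).

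egl-9 (F22E12.4, chromosome V, 10468517 to 10476915, plus strand, 7 transcripts), the oxygen-dependent hydroxylase that marks HIF-1, had 2.09, 10.6 and 11.3 FPKM in tryptophan libraries 1 to 3, against 10.7, 6.15 and 3.30 FPKM in control libraries 1 to 3. The control range lay within the tryptophan range, and again tryptophan library 1 was the lowest of the 6. Its log2 fold change was 0.10 (SE 0.68, 95% interval -1.49 to 1.69, limma adjusted p = 0.972). In libraries 2 and 3 it was 1.11 (SE 0.28, interval 0.46 to 1.75), the largest of the 8 in those libraries, with an unadjusted p = 0.00440 and an adjusted p = 0.179 (limma).

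rhy-1 (W07A12.7, chromosome II, 9161379 to 9163448, plus strand, 1 transcript), the inhibitor of CYSL-1, had 2.58, 20.8 and 27.4 FPKM in tryptophan libraries 1 to 3, against 13.3, 17.5 and 13.8 FPKM in control libraries 1 to 3. The controls were close together, whereas the tryptophan libraries held both the lowest value and the highest values. On the log2 scale the difference was -0.27 (SE 0.79, 95% interval -2.11 to 1.57, limma adjusted p = 0.925) over all libraries and 0.59 (SE 0.23, interval 0.06 to 1.12, unadjusted p = 0.0342 and adjusted p = 0.318, limma) in libraries 2 and 3. Without tryptophan library 1 alone, the log2 fold changes of hif-1, egl-9 and rhy-1 were 0.34, 0.75 and 0.66.

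cysl-1 (C17G1.7, chromosome X, 9952579 to 9954533, minus strand, 1 transcript), the sulfide-responsive inhibitor of EGL-9, had 29.9, 40.2 and 38.2 FPKM in tryptophan libraries 1 to 3, against 29.2, 43.8 and 51.2 FPKM in control libraries 1 to 3. Library 1 was the lowest of each group, with nearly equal values in both. Its log2 fold change was -0.17 (SE 0.39, 95% interval -1.08 to 0.74, limma adjusted p = 0.902), and -0.27 (SE 0.19, interval -0.71 to 0.18, limma adjusted p = 0.560) in libraries 2 and 3.

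**Figure D2:**
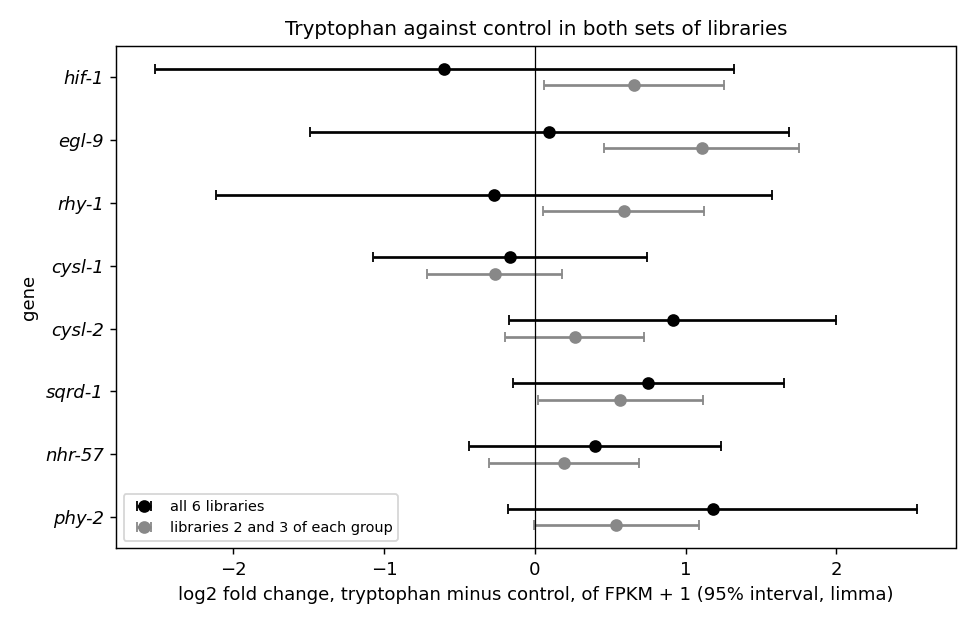
Log2 fold change of FPKM + 1, tryptophan minus control, for the 8 pathway genes in limma, with 95% intervals; black marks use all 6 libraries and grey marks libraries 2 and 3 of each group. For hif-1 the value is -0.60 in all 6 libraries and 0.66 in libraries 2 and 3, and for rhy-1 -0.27 and 0.59.

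In libraries 2 and 3 alone, 7 of the 8 pathway genes had both tryptophan values above both control values, cysl-1 being the exception with both below. That order is common with 4 libraries: it was found for 21.4% of all genes tested, and the reverse for 25.0%. For cysl-2, sqrd-1, nhr-57 and phy-2 the higher order was bound to hold, as their groups were separate over all 6 libraries. Unadjusted p-values under 0.05 were found for hif-1, egl-9, rhy-1 and sqrd-1, so for 4 of 8, against 14.0% of all genes. In this subset limma called 68 of 13511 genes (0.503%) at an adjusted p under 0.05, and 0 of the 8 pathway genes were among them. The 7 genes were also those with a log2 fold change above 0, against 47.3% of all genes, and the median of the 8 was 0.55, against -0.02 over all genes. These shares too are a description, given how the 8 genes were chosen.

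The order of the levels differed little between the groups. By mean FPKM in tryptophan animals it ran cysl-2, phy-2, cysl-1, hif-1, rhy-1, egl-9, sqrd-1 and nhr-57, and in control animals cysl-2, cysl-1, hif-1, phy-2, rhy-1, egl-9, sqrd-1 and nhr-57. phy-2 thus stood at 69.0 ± 12.9 FPKM and rank 2 in tryptophan animals, and at 34.8 ± 20.2 FPKM and rank 4 in control animals (SD, n = 3 each). Among neighbours in that order, the ranges of hif-1 with cysl-1, of rhy-1 with hif-1, of egl-9 with rhy-1 and of sqrd-1 with egl-9 overlapped in tryptophan animals. In control animals hif-1 with cysl-1, phy-2 with hif-1, rhy-1 with phy-2 and sqrd-1 with egl-9 overlapped.

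The shapes of the profiles over the 6 libraries were compared by the root mean square (RMS) difference of log2(FPKM + 1), after centring each gene on its mean. hif-1 was nearest to egl-9 (0.47) and rhy-1 to hif-1 (0.48), whereas hif-1 lay 1.63 from cysl-2 and 1.63 from phy-2. cysl-2 was nearest to sqrd-1 (0.37), phy-2 to cysl-2 (0.47), and sqrd-1 and nhr-57 were nearest to each other (0.25). The switch gene cysl-1 was nearest to the target nhr-57 (0.37) and lay 1.03 from hif-1, 0.84 from egl-9 and 0.85 from rhy-1. Such closeness was not rare: of the 7700 tested genes varying at least 1/2 as much as hif-1, 14.0% lay closer to it than egl-9 did. For sqrd-1 and nhr-57 the shares were 1.14% of 12843 and 4.28% of 13401. For rhy-1, egl-9, cysl-2, phy-2 and cysl-1, each with its nearest member, they were 6.04%, 7.72%, 8.98%, 10.7% and 11.3%.

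Of the switch genes, hif-1 shared its order of libraries with the means of some tissue and stage marker lists. From high to low, hif-1 ran control 1, tryptophan 2, tryptophan 3, control 2, control 3 and tryptophan 1, and the means of the 6 yolk genes and of 5 neuronal genes gave the same order. Taken singly, none of the 5 neuronal genes had that order, nor did the yolk genes vit-2, vit-3 and vit-6. The neuronal gene rab-3 had 3.32 FPKM in control library 1, against 8.60 and 8.82 FPKM in control libraries 2 and 3. Muscle genes were likewise lowest in tryptophan library 1, at a mean of 3.66, where the other tryptophan libraries had 7.19 and 6.51 and the control libraries 5.60 to 6.47, with all 5 detected in every group and sums of 203.1 to 1865 FPKM in tryptophan and 740.2 to 1281 FPKM in control libraries. Neuronal genes averaged 2.75 in tryptophan library 1, below the 3.71 to 3.98 seen elsewhere, with sums of 215.4 to 260.9 FPKM in tryptophan and 204.4 to 283.4 FPKM in control libraries. snb-1, the most abundant of the 5, ran the other way, with 252.1 FPKM in tryptophan library 1, above its value in every other library. The mean of the 5 intestinal genes changed little, at 6.21 to 6.38 in all libraries, but its genes were divided. elt-2, act-5 and pept-1 were lowest in tryptophan library 1, at 5.14, 520.9 and 32.1 FPKM. ges-1 was highest there, at 37.1 FPKM, and cpr-6, at 544.2 FPKM, was exceeded only in control library 1. egl-9 and rhy-1 were also lowest in tryptophan library 1 but had other orders, with rhy-1 near its mean in control library 1, and cysl-1 was lowest in control library 1. The part of these markers' tissues or of stage in the values of these genes was not tested.

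**Figure D3:**
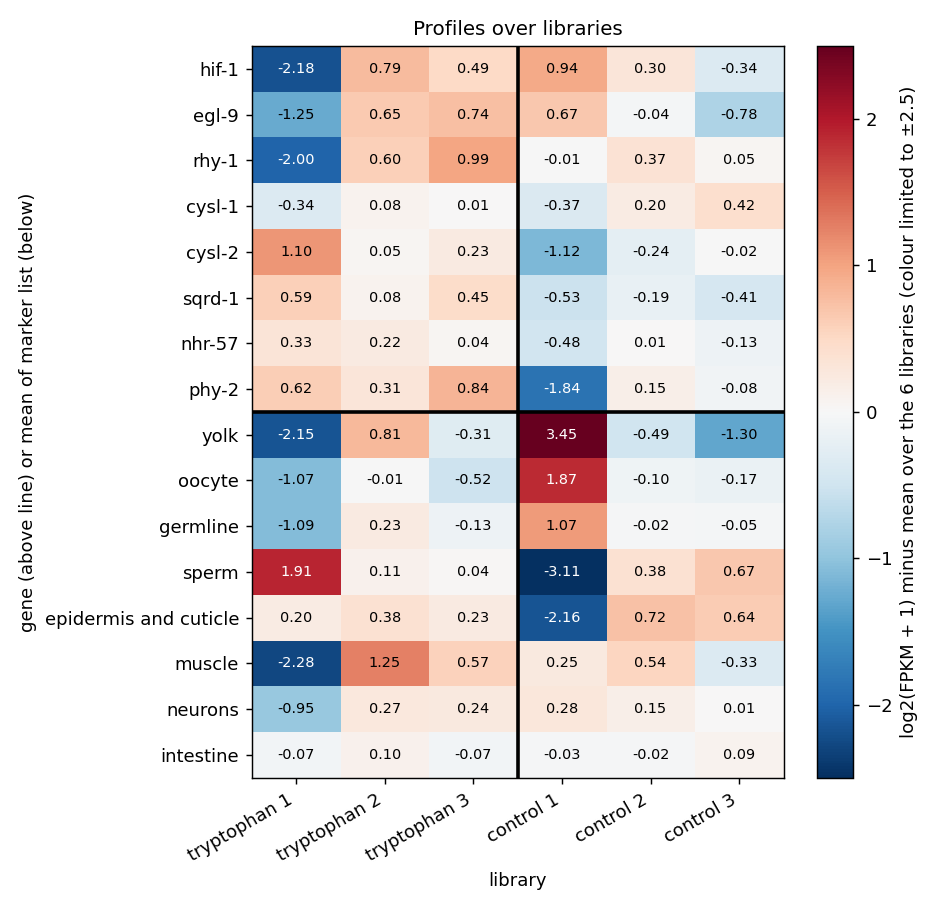
Log2(FPKM + 1) minus its mean over the 6 libraries, for the 8 pathway genes (above the line) and the means of 8 marker lists (below), with tryptophan libraries left of control libraries; red is above and blue below the mean. hif-1, egl-9 and rhy-1 are lowest in tryptophan library 1, as are the means of yolk and muscle genes. cysl-1, cysl-2, sqrd-1, nhr-57 and phy-2 are lowest in control library 1, as are the means of sperm and cuticle genes. Within the cuticle list, col-19 is highest in control library 1.

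The genes nearest in profile to hif-1 among all tested were mca-1, a plasma membrane calcium pump, mrp-5, an ABC transporter, and F28C1.3, at RMS differences of 0.06, 0.07 and 0.09. Nearest to rhy-1 were M163.1, efl-3, an E2F-like factor, and exc-7, an RNA-binding protein, at 0.08, 0.09 and 0.12. Nearest to cysl-2 were acp-2, C14B1.3 and Y116A8A.7, at 0.07, 0.08 and 0.08.

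Ratios within a library do not depend on its scaling, and 5 were taken after the values had been seen, as a description. How often ratios of other genes separate the groups was not computed. cysl-2 over its paralog cysl-1 was 10.96, 3.91 and 4.67 in tryptophan libraries 1 to 3, against 2.38, 2.95 and 2.94 in control libraries 1 to 3. egl-9 over hif-1 was 0.355, 0.20 and 0.264 in tryptophan libraries, against 0.182, 0.165 and 0.140 in control libraries. These 2 ratios were higher in every tryptophan library than in any control library, and the other 3 overlapped. sqrd-1 over ethe-1 was 0.584, 1.34 and 1.55 in tryptophan libraries, against 0.649, 1.16 and 0.743 in control libraries. rhy-1 over hif-1 was 0.438, 0.394 and 0.641 in tryptophan libraries, against 0.225, 0.467 and 0.585 in control libraries. The fifth ratio, phy-2 over dpy-18, is given with the collagen genes.

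Around these genes, 40 neighbours of the pathway were examined in 4 lists, of which 35 were abundant enough to test and 0 passed (limma, adjusted p under 0.05). cbs-1 alone of the 35 had an unadjusted p under 0.05 (limma), against 1.17% of all genes. Of the 35, 17 lay above 0 and 18 below, with 47.7% of all genes above 0, and the median log2 fold change was -0.01. Groups did not overlap for 1 gene in the higher direction and 2 in the lower, against 3.98% and 4.32% of all genes.

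cbs-1 (ZC373.1), a cystathionine beta-synthase that can make hydrogen sulfide, had the smallest unadjusted p of the tested neighbours and did not pass. It had 30.9, 27.6 and 29.5 FPKM in tryptophan libraries 1 to 3, against 9.45, 15.2 and 14.6 FPKM in control libraries 1 to 3. All tryptophan values lay close together and well above the controls. The log2 fold change was 1.13 (SE 0.39, 95% interval 0.23 to 2.04, unadjusted p = 0.0206 and adjusted p = 0.802, limma) over all libraries and 0.89 (SE 0.19, interval 0.45 to 1.34, limma adjusted p = 0.127) in libraries 2 and 3. Of the 14 tested genes of sulfide and cysteine metabolism, 9 lay above 0 on the log2 fold change scale, against 47.7% of all genes, and 0 passed. In libraries 2 and 3, 7 of the 14 lay above 0, against 47.3% of all genes.

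The other named genes of that list had their highest value in tryptophan library 1. cdo-1, the cysteine dioxygenase, had 48.2, 20.8 and 33.7 FPKM in tryptophan libraries, against 8.49, 23.2 and 22.1 FPKM in control libraries. ethe-1, the persulfide dioxygenase that acts after SQRD-1, had 13.1, 3.78 and 4.43 FPKM in tryptophan libraries, against 4.58, 3.48 and 4.45 FPKM in control libraries. Both overlapped between groups, and the log2 fold changes in libraries 2 and 3 were 0.22 and 0.04. cysl-4 and mpst-4 had log2 fold changes of 1.30 (SE 0.83) and 1.6 (SE 1.10) over all libraries and -0.11 and 0.05 in libraries 2 and 3, with control library 1 at 0.398 and 0.533 FPKM.

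HIF-1's partners and the ligase that removes it had mostly negative values. Of 7 tested genes 1 had a log2 fold change above 0, against 47.7% of all genes, and 0 passed. The median of these 7 genes was -0.77, against -0.03 when libraries 1 were left out. rbx-1, the RING subunit of the ligase, had 96.5, 70.2 and 65.9 FPKM in tryptophan libraries, against 194.7, 100.3 and 115 FPKM in control libraries. Its groups did not overlap, and its log2 fold change was -0.77 (SE 0.40, limma adjusted p = 0.802), or -0.65 (SE 0.19, limma adjusted p = 0.228) in libraries 2 and 3. elb-1, the elongin B of that ligase and chosen after its values were seen, had -0.69 (SE 0.49) over all libraries, where the groups overlapped, and -0.86 (SE 0.19, limma adjusted p = 0.136) in libraries 2 and 3. elc-1, cul-2 and swan-1 had log2 fold changes of -1.17, -0.89 and -0.85, which were -0.11, -0.03 and -0.01 in libraries 2 and 3. vhl-1, the substrate receptor, had 11.5, 6.18 and 6.48 FPKM in tryptophan libraries, against 7.28, 4.82 and 7.63 FPKM in control libraries, and aha-1, the partner with which HIF-1 binds DNA, had 3.72, 5.91 and 6.92 FPKM against 8.01, 4.89 and 5.51 FPKM in control libraries. Their values overlapped, with log2 fold changes of 0.23 (SE 0.44) and -0.14 (SE 0.42), and of 0.05 and 0.26 in libraries 2 and 3.

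Other genes reported to respond to HIF-1 or EGL-9 were divided, with 5 of 10 tested above 0, against 47.7% of all genes, and 0 past the threshold. Among the 10, 0 were higher without overlap and 1 was lower, against 3.98% and 4.32% of all genes. fmo-2, a flavin monooxygenase, had 4.57, 3.22 and 7.19 FPKM in tryptophan libraries, against 5.78, 2.49 and 1.94 FPKM in control libraries. It overlapped over all libraries (log2 fold change 0.49, SE 0.49) and stood at 0.88 (SE 0.33, limma adjusted p = 0.301) in libraries 2 and 3. ldh-1, lactate dehydrogenase, had 56.8, 70.6 and 69.6 FPKM in tryptophan libraries, against 113.7, 79.9 and 87.5 FPKM in control libraries, so every tryptophan value was below every control value (log2 fold change -0.50, SE 0.35, limma adjusted p = 0.802). The ferritin gene ftn-1, F22B5.4 and the glutathione S-transferase gene gst-19 had log2 fold changes of 1.08, 0.83 and 0.81 over all libraries and 0.20, -0.08 and -0.11 in libraries 2 and 3. For these 3 genes the highest value was that of tryptophan library 1.

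Among genes that modify collagen, dpy-18 encodes the other main catalytic subunit beside PHY-2. It had 105.0, 118.2 and 106.0 FPKM in tryptophan libraries, against 23, 117.1 and 108.4 FPKM in control libraries. Apart from control library 1 all values were close together, and the log2 fold change was 0.71 (SE 0.64) over all libraries and -0.01 (SE 0.19, 95% interval -0.45 to 0.43) in libraries 2 and 3. Whether phy-2 and dpy-18 differ in their response was not tested, and phy-2 over dpy-18, at 0.664, 0.473 and 0.769 in tryptophan libraries and 0.517, 0.426 and 0.392 in control libraries, overlapped between the groups. let-268, the collagen lysyl hydroxylase, pdi-2, the protein disulfide isomerase subunit, and phy-3 were at 0.62, -0.02 and -0.02 on the log2 fold change scale, with SEs of 0.46, 0.46 and 0.44. In libraries 2 and 3 they were at 0.12, 0.42 and -0.24, and let-268 was at 0.29 without control library 1. Of these, pdi-2 was above 0 with rescaling to TPM or quantile normalization, and phy-3 with rescaling to TPM.

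**Figure D4:**
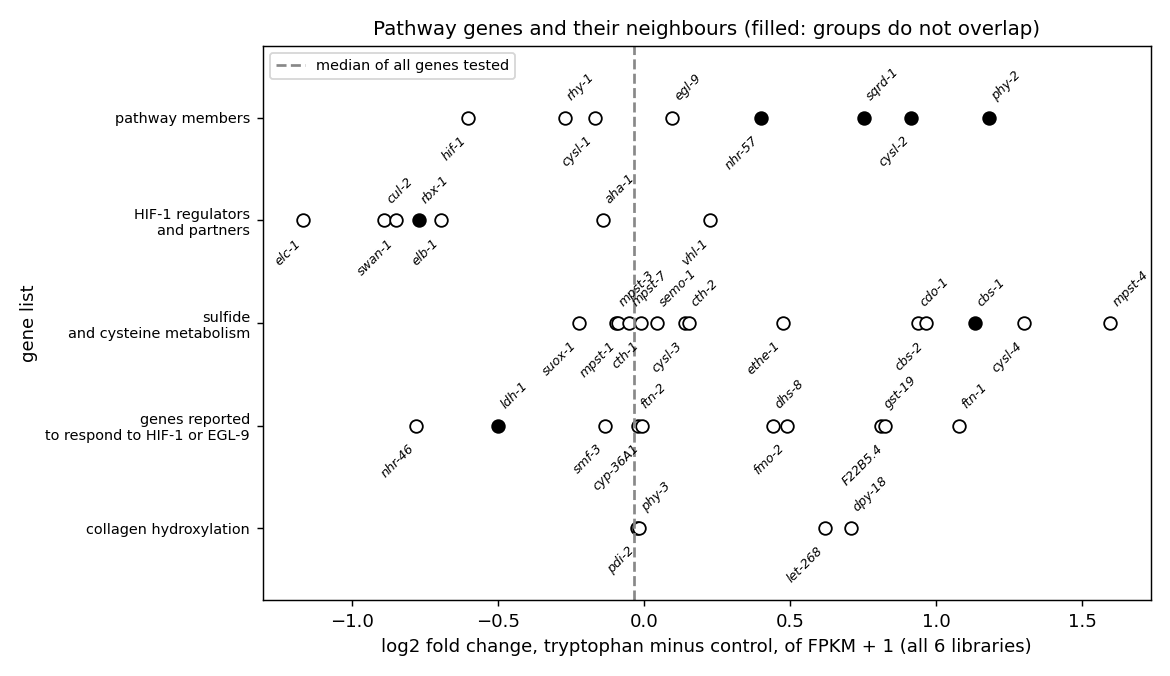
Log2 fold change of FPKM + 1, tryptophan minus control, over all 6 libraries, for the 8 pathway genes and the 35 tested neighbours in 4 lists; filled marks are genes whose groups do not overlap and the dashed line is the median of all genes tested. Filled marks are cysl-2, sqrd-1, nhr-57, phy-2 and cbs-1 on the higher side and rbx-1 and ldh-1 on the lower side.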

How the data were processed

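Each library came as a table of FPKM values that the authors deposited, as named in the file headers. Bowtie 0.12.2, StringTie and build WBcel235 are named in the submitters' processing notes. Strandedness and scaling are not stated in the labels, so reads shared with overlapping genes (vnut-1 at cysl-2, W07A12.8 at rhy-1, lgc-1 at nhr-57) are uncertain. Coordinates and symbols come from Ensembl release 115 of that build, which matched 45624 of 46589 identifiers. Depth was estimated from the FPKM step of 1 counted unit in genes with a single transcript of at least 600 bp. Of low values 66.0% to 71.2% lay within 0.2 steps of a whole multiple, so the values were not turned back into counts.

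The analysis used log2(FPKM + 1) for genes with a mean of at least 1 FPKM, in limma 3.58.1 (R 4.3.3) with eBayes and trend, two-sided, Benjamini-Hochberg adjusted over 13511 genes, threshold 0.05. With 3 against 3 libraries a permutation test cannot go below p = 0.10. Tables used pandas 2.3.3 and numpy 2.4.6 in Python 3.11.15, and figures matplotlib 3.10.9.

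The 8 genes and the lists were chosen with earlier results of these data known. All 8 are named, with up to 4 genes of each list by smallest p and 8 fixed genes, of which sqrd-2 was not matched, and the 3 genes nearest in profile to hif-1, rhy-1 and cysl-2. Alternatives changed the pseudocount, filter, scaling, eBayes settings, replicate block or libraries.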

Additional observations from a re-analysis of the deposited data

How the results depend on the processing

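With all 6 libraries, and with any 1 left out, 0 genes passed, and 0 of the 8 pathway genes or their neighbours passed in any of the 17 alternatives. With libraries 2 and 3 only, 68 genes passed, and the pathway genes higher without overlap numbered 7 and their median log2 fold change was 0.55. The count of 4 genes without overlap was 2 with a filter of 5 FPKM, which removes sqrd-1 and nhr-57 and gives a median of -0.035, and 2 with quantile normalization and with rescaling to TPM. The 5 FPKM filter also put the median of all genes at -0.16. With 1 library left out the count was 4 to 5 and the median of the pathway genes 0.091 to 0.62. The 4 genes without overlap over all 6 libraries keep that order in any subset of libraries. The count could therefore not fall below 4 with 1 library left out or with libraries 2 and 3 only. The median was 0.62 without tryptophan library 1, against 0.25 with all 6. The replicate block gave 0 calls and left the median at 0.25. Deviations of same-numbered libraries from their group means had correlations of -0.37, -0.30 and -0.34 for numbers 1 to 3. Library 1 of each group enters every group mean, so these values cannot show whether same-numbered libraries were handled together.

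The direction of cysl-2, sqrd-1, nhr-57, phy-2 and cbs-1 was above 0 in each alternative in which they were tested, with log2 fold changes of 0.26 to 1.14, 0.57 to 0.90, 0.14 to 0.52, 0.54 to 1.55 and 0.89 to 1.25. Their groups did not overlap in the main fit, so only the changes of scaling could have turned it. The other alternatives could change the size of these values but not their sign. Among the genes named, direction turned in libraries 2 and 3 only for hif-1 (0.66), rhy-1 (0.59), aha-1 (0.26), pdi-2 (0.42), cysl-4 (-0.11), F22B5.4 (-0.076), gst-19 (-0.11) and dpy-18 (-0.0096). pdi-2 turned with quantile normalization (0.21) and rescaling to TPM (0.090), as did phy-3 with the last (0.080). With 1 library left out, direction also turned for hif-1 (-1.14 to 0.34), egl-9 (-0.27 to 0.75), rhy-1 (-0.83 to 0.66), cysl-1 (-0.39 to 0.0014), vhl-1 (-0.027 to 0.37), aha-1 (-0.30 to 0.076), ethe-1 (-0.014 to 0.77), dpy-18 (-0.040 to 1.11), phy-3 (-0.33 to 0.22) and pdi-2 (-0.32 to 0.43). The cause was not tested.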
